A study of Homo sapiens with 4 samples.

Results

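ZEB1, ZEB2, SNAI1, SNAI2, TWIST1, SOX9, TCF4, PRRX1, NR2F1 and NFATC2 are 10 transcription factor genes tied to phenotype switching and mesenchymal state. Their H3K27ac-associated loops were taken from the lists of M14 cells with and without STAG2 knockdown. A loop belonged to a gene when an annotated transcript start of that gene lay in either of the loop's 5 kb anchors on hg19. By this rule 56 loops of the 27289 in WT were included, and 45 of the 25621 in STAG2-KD, which made 79 distinct loops of 42529. The 10 genes were a selection from 19222 protein-coding autosomal genes. A loop in either list was found for 6 of the 10, and for 8562 of the 19222.

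M14 is a human melanoma line, and every sample came from M14 cells with a STAG2 hairpin (shRNA) under doxycycline control, STAG2 being one of the cohesin subunits. In the STAG2-KD group the hairpin was induced with doxycycline over 5 days, while WT denotes the uninduced cells of this line, so the effects of the hairpin and of doxycycline itself cannot be told apart. HiChIP joins stretches of chromatin that lie close together and then enriches them with an antibody, here against H3K27ac, the histone acetylation found at active enhancers and promoters. The labels named 4 samples, 2 per group, and 1 loop list per group was analysed here. The lists gave positions only, so read depth was unknown, the level of STAG2 could not be checked, and no comparison had a replicate check or a p-value. Intervals are exact binomial (Clopper-Pearson) or exact order-statistic intervals at 95%, and they cover counting error only. Loops were not independent of one another, since several loops often share an anchor.

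Phenotype switching is the move of melanoma cells between a differentiated, melanocyte-like state and an invasive, mesenchymal-like state. ZEB, SNAI and TWIST proteins drive the epithelial-mesenchymal transition (EMT) in carcinomas by binding E-box motifs in the DNA, among them those of the E-cadherin gene. In the melanocyte lineage ZEB2 and SNAI2 belong to the differentiated program, while ZEB1 and TWIST1 are linked to the invasive state.

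The loops were unevenly spread over the genes. NFATC2 had 21 loops in WT and 22 in STAG2-KD. SNAI2 had 16 in WT and 8 in STAG2-KD. ZEB2 had 9 and 7, and PRRX1 had 8 in each list. These 4 genes therefore held nearly all of the loops, and SNAI2 was the gene whose count differed most between the lists. SNAI1 and TWIST1 each had 1 loop in WT and none in STAG2-KD. ZEB1, SOX9, TCF4 and NR2F1 had no loop at a start in either list.

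**Figure D1:**
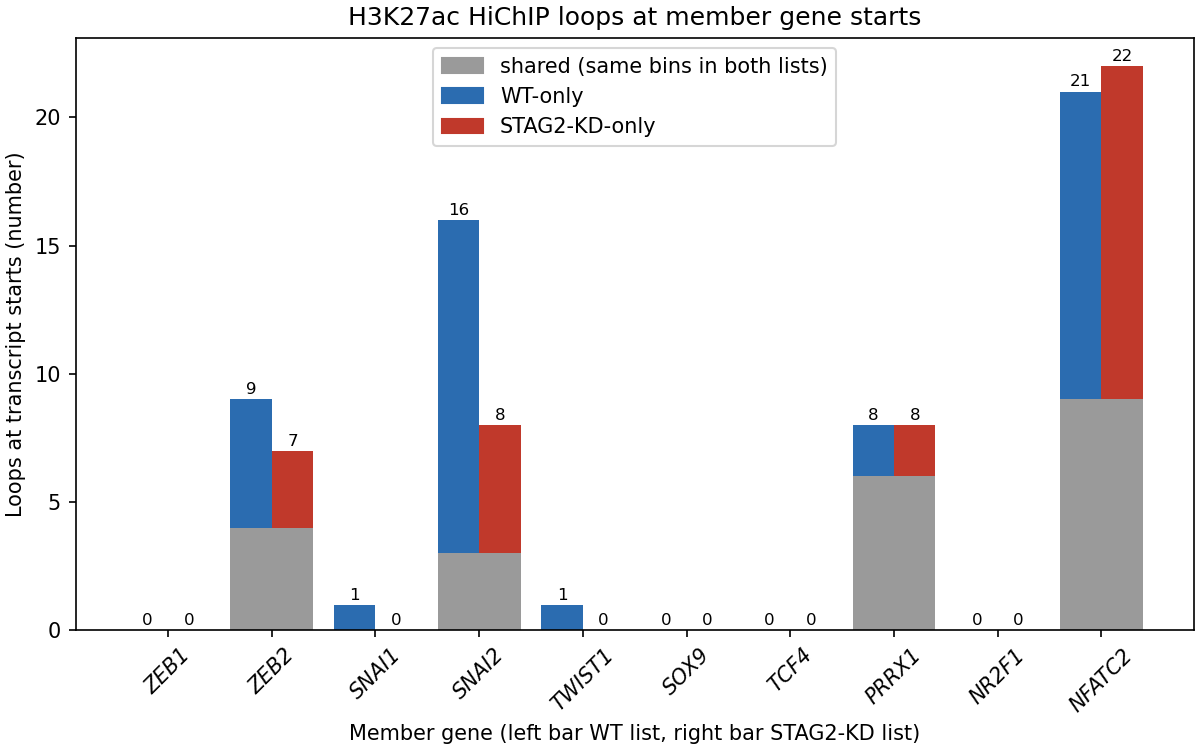
Bars give the number of loops (vertical axis) with a transcript start of each of the 10 genes in an anchor, in WT and in STAG2-KD, split into shared loops and loops of a single list. NFATC2 stood highest in both lists (21 and 22 loops), SNAI2 had 16 and 8, and 4 genes had none.

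Set beside all genes, 6 of the 10 had a loop in WT, where the share over all protein-coding autosomal genes was 39.1%. In STAG2-KD it was 4 of 10, where the share over all genes was 36.8%. Neither list had a loop for 4 of the 10 and, over all genes, for 10660 of 19222. At least 7 loops were held by 4 of 10 genes in each list, and over all genes this was the case for 4.25% in WT and 4.13% in STAG2-KD. The limit of 7 was chosen with the counts known. A loop in WT and none in STAG2-KD was found for 2 of the 6 genes with any loop (SNAI1 and TWIST1), against 17.3% over all genes with a loop. More WT than STAG2-KD loops were found for 4 of the 6, against 43.5% over all such genes, and more STAG2-KD loops for 1 of the 6, against 34.4%.

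Of the 79 loops, 22 were shared, meaning that WT and STAG2-KD had a loop with an identical pair of bins. A further 34 occurred in WT alone (WT-only) and 23 in STAG2-KD alone (STAG2-KD-only). Sharing amounted to 39.3% of the WT loops of these genes (26.5 to 53.2), and over the whole WT list the share was 38.0%. It amounted to 48.9% of the STAG2-KD loops (33.7 to 64.2), with 40.5% over the whole STAG2-KD list. Among the loops found in a single list, 40.4% were STAG2-KD-only (27.6 to 54.2), and the value over all such loops was 47.4%. Each of these 3 intervals held the value of the whole list. Over loops with a protein-coding start the 3 values were 41.2%, 43.4% and 47.7%, which also lay inside the intervals.

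These loops had larger median distances between anchor midpoints than promoter loops at large. In WT the median was 275 kb (175 to 410), beside 90 kb over all loops with a protein-coding start. In STAG2-KD it was 170 kb (105 to 410), beside 85 kb. The WT distances ran from 20 kb to 1405 kb, and those of STAG2-KD from 20 kb to 920 kb. By gene, the medians in WT and STAG2-KD were 425 kb and 425 kb (ZEB2), 385 kb and 127.5 kb (NFATC2), 275 kb and 240 kb (SNAI2), and 115 kb and 150 kb (PRRX1). The single WT loops of SNAI1 and TWIST1 spanned 130 kb and 20 kb. The order of the pooled medians rested on NFATC2, since without it they were 260 kb (WT) and 310 kb (STAG2-KD). Loops of 500 kb or more numbered 11 of 56 in WT (19.6%) and 12 of 45 in STAG2-KD (26.7%), where loops with a protein-coding start reached that length in 3.19% and 4.25%. They came from the same 4 genes in each list. ZEB2 had 2 in WT and 3 in STAG2-KD, SNAI2 2 and 2, PRRX1 2 and 3, and NFATC2 5 and 4.

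**Figure D2:**
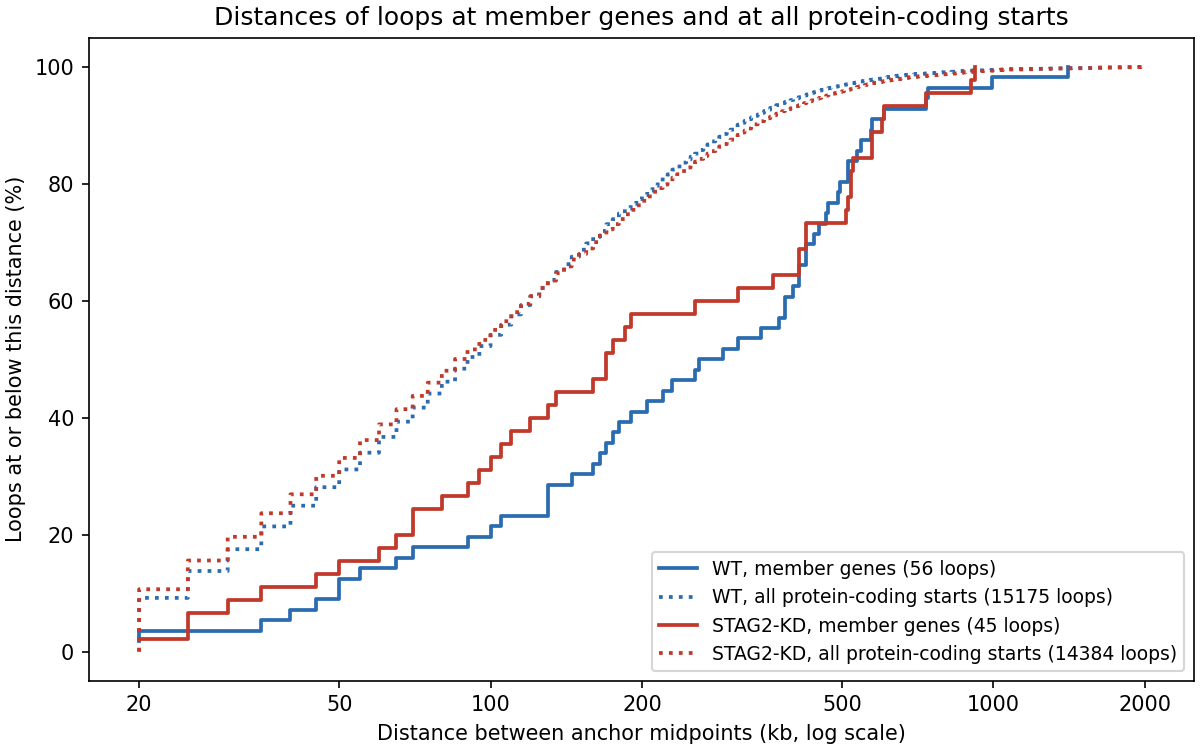
Cumulative percent of loops (vertical axis) at or below each distance between anchor midpoints (kb, log scale) for the loops of the 10 genes (solid lines, 56 in WT, 45 in STAG2-KD) and all loops with a protein-coding start (dotted lines, 15175 and 14384). The solid lines lie to the right of the dotted ones over most of the range, with medians of 275 kb and 170 kb against 90 kb and 85 kb.

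Few of these loops ended at the promoter of another gene. A partner anchor with the start of another protein-coding gene was found for 5 of 56 loops in WT (8.93%, 2.96 to 19.6) and for 4 of 45 in STAG2-KD (8.89%, 2.48 to 21.2). Over all loops with a protein-coding start, both anchors held such a start in 34.4% (WT) and 33.7% (STAG2-KD). That wider measure also took in loops between starts of the same gene. The count for these genes left such loops out, as with the loop between the NFATC2 start bins. The promoters reached were those of ARHGAP15 from ZEB2, UBE2V1 from SNAI1, GORAB and NTMT2 from PRRX1, and DPM1 from NFATC2. The other partners held no protein-coding start of another gene.

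ZEB2, a zinc finger E-box-binding homeobox repressor, lies on the minus strand at chr2:145121931-145278624. Its 50 annotated transcripts start in 10 bins, and only 2 of these bins had loops. All 9 of its loops in WT and 6 of the 7 in STAG2-KD came from the bin at chr2:145270001-145275000, which holds 5 starts. The neighboring bin at chr2:145275001-145280000 holds 32 starts, the canonical transcript among them, and it had 0 WT loops and 1 STAG2-KD loop. The 300 bases around one start of the looped bin (chr2:145273915-145274214, minus strand, 250 bases before the start of ENST00000638128 and 50 from it) are shown because most ZEB2 loops came from that bin.
ZEB2 promoter window: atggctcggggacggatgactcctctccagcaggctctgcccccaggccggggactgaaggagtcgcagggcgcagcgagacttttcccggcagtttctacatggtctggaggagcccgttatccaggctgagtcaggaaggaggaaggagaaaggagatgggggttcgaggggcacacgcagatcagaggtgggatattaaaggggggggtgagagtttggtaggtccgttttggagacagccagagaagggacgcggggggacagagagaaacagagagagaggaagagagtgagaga
This window is in lower case throughout because it held no ZEB/SNAI box, the letters CAGGTG or their reverse complement CACCTG.

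The 4 shared ZEB2 loops ran from this bin to an intragenic anchor at chr2:145180001-145185000, 90 kb downstream, and to 3 anchors upstream of the gene. The upstream anchors opened at 145525001 (255 kb), 145680001 (410 kb) and 145695001 (425 kb), and none held a protein-coding start. The anchor 255 kb upstream had 14 loops in WT and 10 in STAG2-KD, counting all loops that ended there. Shared ZEB2 loops therefore lay mostly on the upstream side. The 5 WT-only loops ran from 375 kb, at chr2:145645001-145650000, to 1405 kb, at chr2:146675001-146680000. One of them, at 490 kb, reached the start of the long noncoding RNA gene TEX41, and the one on the downstream side reached the ARHGAP15 promoter at 995 kb. The 3 STAG2-KD-only loops spanned 520 kb, from the canonical start bin to chr2:145795001-145800000, and 905 kb and 920 kb, to a pair of anchors inside ARHGAP15. No ZEB2 loop of a single list had a loop of the other list with both anchors within 2 bins. ZEB2 shared 44.4% of its WT loops (13.7 to 78.8) and 57.1% of its STAG2-KD loops (18.4 to 90.1).

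SNAI1, the Snail zinc finger repressor of E-cadherin, lies at chr20:48599517-48605423 on the plus strand. Its single WT loop joined the start bin at chr20:48595001-48600000 to the UBE2V1 promoter at chr20:48725001-48730000, a distance of 130 kb. UBE2V1 encodes a ubiquitin-conjugating enzyme variant. In STAG2-KD the start bin had no loop, but the bin at chr20:48605001-48610000, 2 bins downstream at the end of the gene, had a loop to the same UBE2V1 bin at 120 kb. That bin also had a WT loop of 160 kb and a STAG2-KD loop of 35 kb, so each list held 2 loops that touched the gene. The start bin held a match to a strict core of the CTCF motif at chr20:48595686-48595718 on the plus strand, shown with the core in capitals.
CTCF core match in the SNAI1 anchor: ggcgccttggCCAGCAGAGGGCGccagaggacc
CTCF is the insulator protein at which cohesin often halts. Across both lists 1265 of 30601 anchors (4.13%) held this strict core, as did 1 of the 9 looped start anchors and 1 of 74 partner anchors of these genes.

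SNAI2, the Slug zinc finger repressor needed for neural crest and melanocyte development, lies on the minus strand at chr8:49830157-49834299. All of its 3 transcript starts fall in the bin at chr8:49830001-49835000. That bin had 16 loops in WT and 8 in STAG2-KD. All 21 distinct loops ran downstream of the gene, over 20 kb to 740 kb (WT) or 20 kb to 600 kb (STAG2-KD), and no partner held a protein-coding start. One WT-only partner, at 400 kb, held the start of the long noncoding RNA gene LINC02947.

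The 3 shared SNAI2 loops ended at anchors opening at 49810001 (20 kb), 49760001 (70 kb) and 49520001 (310 kb). The nearest of these partners took part in 13 WT loops and 4 STAG2-KD loops. The 13 WT-only loops reached from chr8:49790001-49795000 at 40 kb to chr8:49090001-49095000 at 740 kb. None of their 13 partner bins was an anchor of any STAG2-KD loop, and 4 had one within 2 bins. Among WT-only partner bins of the other genes, STAG2-KD anchors were 2 of 5 (ZEB2), 2 of 2 (PRRX1), 4 of 12 (NFATC2), 1 of 1 (SNAI1) and 0 of 1 (TWIST1). The 5 STAG2-KD-only loops of SNAI2 reached from chr8:49770001-49775000 at 60 kb to chr8:49230001-49235000 at 600 kb. Of their partner bins, 1 was a WT anchor, and all 5 had one within 2 bins. The matching shares over all loops of a single list were not computed, so these counts have no base rate. SNAI2 thus had fewer loops in STAG2-KD over most of the same downstream span, with a shared part of 18.8% of WT loops (4.05 to 45.6) and 37.5% of STAG2-KD loops (8.52 to 75.5).

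SNAI2 was the 1 gene of the 4 with at least 15 loops summed over both lists that had at least 2 times as many loops in WT. Over all genes with at least 15 such loops this was the case for 5.49%. None of the 4 had at least 2 times as many in STAG2-KD, against 5.66%. The loops around the gene differed in the same direction: within 1 Mb, and away from the start bin, WT had 21 loops and STAG2-KD had 3, with 1 in common. Of these, 11 in WT and 2 in STAG2-KD joined partner bins of the SNAI2 loops to one another. The count was therefore not a separate observation. The limits of 15 loops and, for the windows described further on, of 40 loops were chosen with the counts known.

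**Figure D3:**
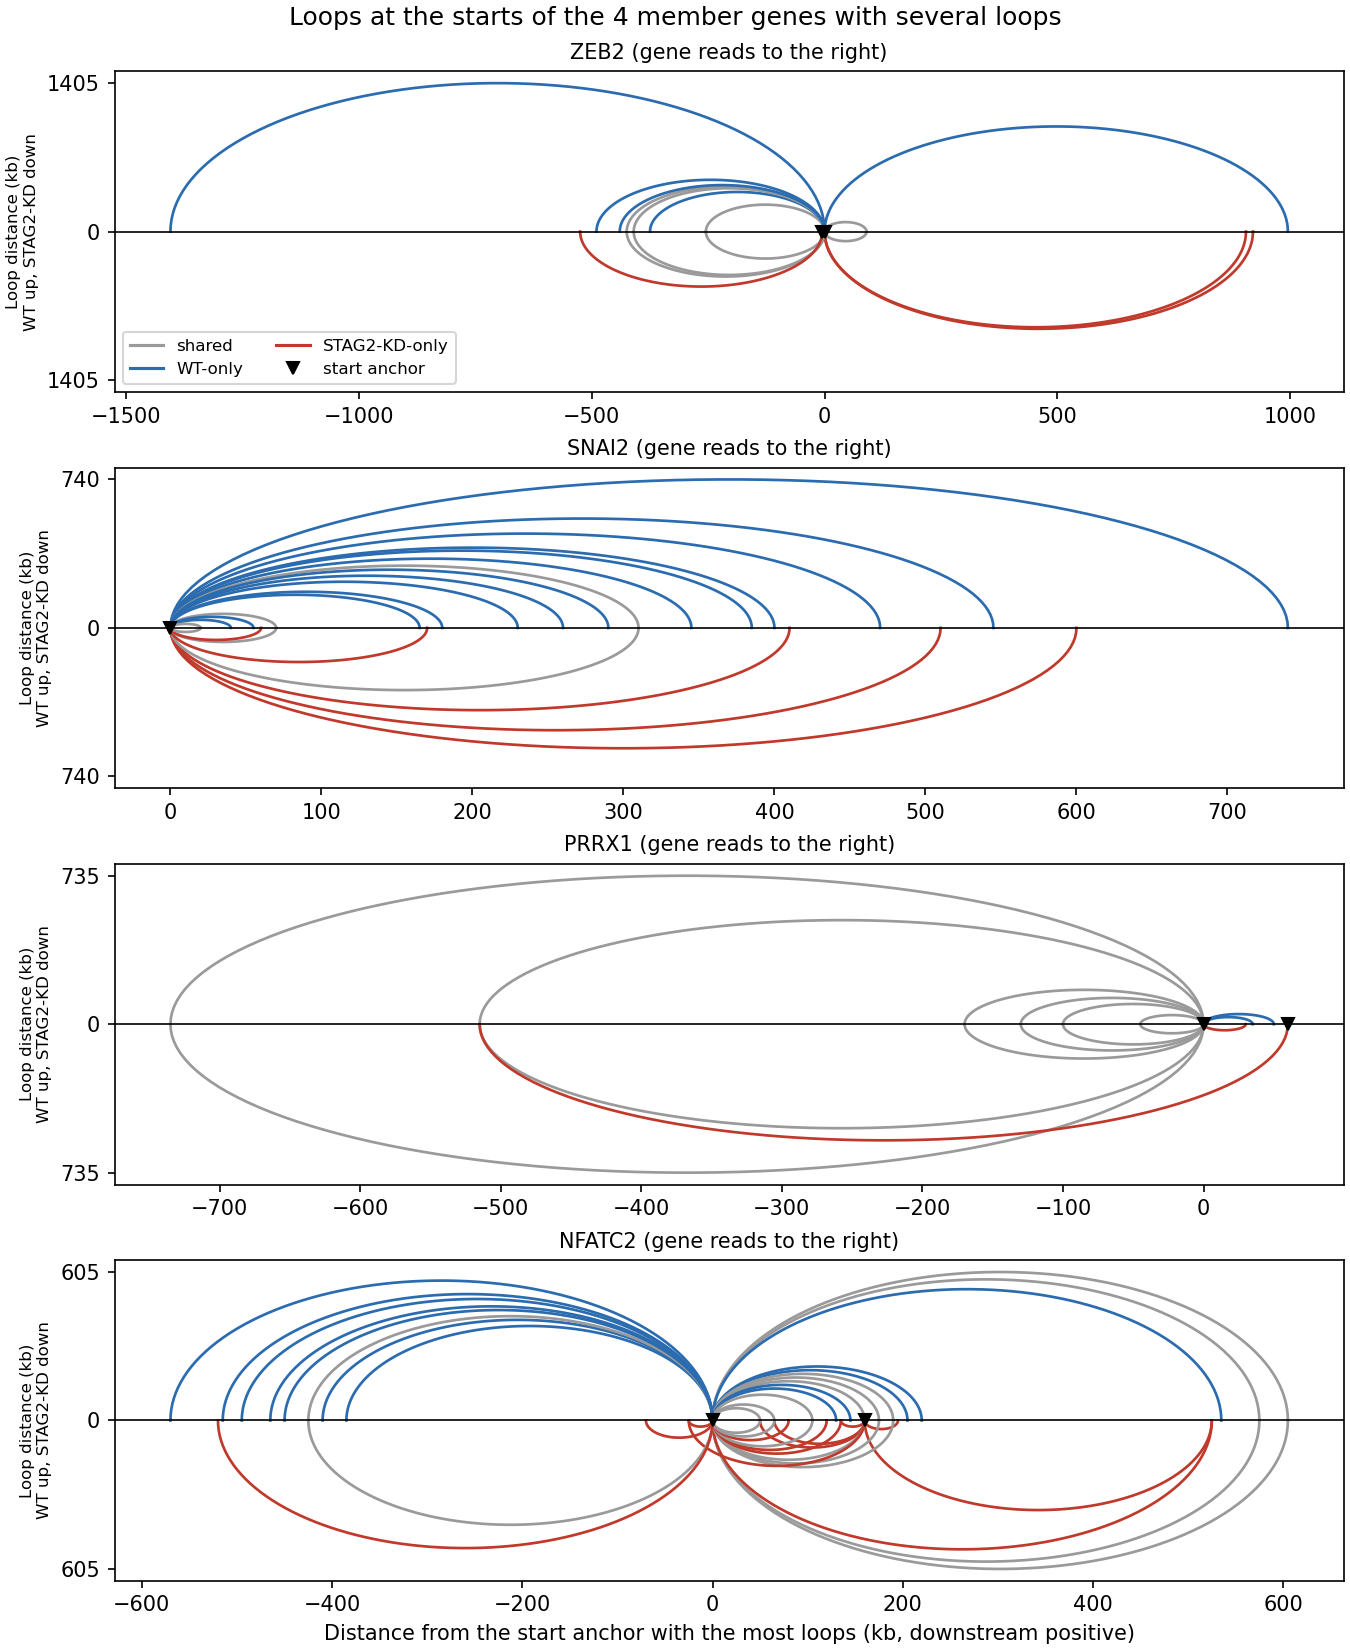
Arcs join the start anchor (triangles) to each partner for ZEB2, SNAI2, PRRX1 and NFATC2, with WT loops above and STAG2-KD loops below the line, distance in kb from the start bin with the most loops on the horizontal axis and loop distance on the vertical axis. All SNAI2 arcs point downstream, the 6 shared PRRX1 arcs point upstream, and the NFATC2 arcs of 385 kb to 570 kb upstream that are WT-only have 1 STAG2-KD-only counterpart of 520 kb.

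TWIST1, a basic helix-loop-helix factor of mesoderm and neural crest, lies on the minus strand at chr7:19060614-19157259. Its 1 WT loop ran 20 kb from the start bin at chr7:19155001-19160000 to chr7:19135001-19140000, inside the annotated extent of the gene. Neither bin was an anchor in STAG2-KD, where the nearest anchor to the starts was 420 kb away. The 20 kb span is the shortest distance in the lists.

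PRRX1, a paired-related homeobox factor of mesenchyme, lies on the plus strand at chr1:170631869-170708562. It had 8 loops in each list, and 6 were shared, which is 75.0% (34.9 to 96.8) of each. From the bin at chr1:170630001-170635000, with 4 transcript starts, came all 8 loops in WT and 7 of the 8 in STAG2-KD. The window around one start of this bin (chr1:170633022-170633321, plus strand) is shown because it anchored the most even set of loops, and it held no ZEB/SNAI box.
PRRX1 promoter window: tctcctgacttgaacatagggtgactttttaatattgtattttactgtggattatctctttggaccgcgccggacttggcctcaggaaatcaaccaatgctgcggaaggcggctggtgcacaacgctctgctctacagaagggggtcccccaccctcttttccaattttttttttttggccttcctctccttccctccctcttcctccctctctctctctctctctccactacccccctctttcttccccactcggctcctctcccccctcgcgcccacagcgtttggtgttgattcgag
All 6 shared loops ran upstream. They ended at anchors opening at 170585001 (45 kb), 170530001 (100 kb), 170500001 with the GORAB promoter (130 kb), 170460001 with a start of GORAB-AS1 (170 kb), 170115001 with the NTMT2 promoter (515 kb) and 169895001 inside KIFAP3 (735 kb). GORAB encodes a Golgi protein, NTMT2 an N-terminal methyltransferase and KIFAP3 a kinesin-associated protein. The NTMT2 anchor took part in 11 loops in each list, and the GORAB anchor in 8 in each. The loops of a single list lay mostly inside PRRX1 itself. The WT-only loops spanned 35 kb and 50 kb downstream, to chr1:170665001-170670000 and chr1:170680001-170685000. The STAG2-KD-only loops spanned 30 kb, to chr1:170660001-170665000, and 575 kb, from the internal start bin at chr1:170690001-170695000 back to NTMT2. The 30 kb and 35 kb loops ended in adjacent bins, so they differed between the lists by 1 bin only.

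NFATC2, a calcineurin-regulated transcription factor linked to dedifferentiation in melanoma, lies on the minus strand at chr20:50003494-50179370. Its totals were nearly equal, 21 in WT and 22 in STAG2-KD, and 9 loops were shared, 42.9% of WT (21.8 to 66.0) and 40.9% of STAG2-KD (20.7 to 63.6). The starts that carried them differed. The upstream start bin at chr20:50175001-50180000 had 21 WT loops and 16 STAG2-KD loops. An internal start bin at chr20:50015001-50020000, where 1 retained-intron transcript starts, had 1 WT loop and 7 STAG2-KD loops. The third start bin, chr20:50155001-50160000 with the canonical start, had no loop in either list. With protein-coding transcripts alone the order of the totals turned, to 21 in WT and 16 in STAG2-KD. The windows around both looped starts are shown because the loops were divided between them. They are chr20:50179321-50179620 and chr20:50015707-50016006, both on the minus strand, and capitals mark a ZEB/SNAI box whose first base was at position -147 of the internal start.
NFATC2 upstream start window: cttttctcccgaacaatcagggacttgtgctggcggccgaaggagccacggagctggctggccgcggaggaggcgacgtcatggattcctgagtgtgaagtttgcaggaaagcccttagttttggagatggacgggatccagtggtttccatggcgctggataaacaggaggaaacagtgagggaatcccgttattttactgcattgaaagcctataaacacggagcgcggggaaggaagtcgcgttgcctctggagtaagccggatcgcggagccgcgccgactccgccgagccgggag
NFATC2 internal start window: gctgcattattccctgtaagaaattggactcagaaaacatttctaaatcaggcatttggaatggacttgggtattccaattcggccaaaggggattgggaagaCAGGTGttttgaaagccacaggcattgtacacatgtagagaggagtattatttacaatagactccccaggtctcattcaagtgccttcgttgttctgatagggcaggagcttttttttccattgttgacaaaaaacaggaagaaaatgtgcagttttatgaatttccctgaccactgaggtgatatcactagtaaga
The upstream window held 25 CpG dinucleotides at 58.3% GC, and the internal window held 2 at 40.7% GC. A ZEB/SNAI box occurred in 2 of the 9 windows at looped starts of these genes and in 20.6% of the 19229 protein-coding promoter windows of the same length, and a match of letters is a description only.

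Of the 9 shared NFATC2 loops, 8 ran downstream of the upstream start or joined it to the internal start, and 1 ran upstream. Those downstream ended at anchors opening at 50125001 (50 kb), 50110001 (65 kb), 50070001 (105 kb), 50000001 (175 kb), 49985001 (190 kb), 49600001 (575 kb) and 49570001, the DPM1 promoter (605 kb). DPM1 encodes the catalytic subunit of dolichol-phosphate mannose synthase. The loop between both start bins spanned 160 kb, and the upstream partner opened at 50600001 (425 kb). The partners at 50 kb to 175 kb lay inside or at the edge of NFATC2, so 5 of the 9 shared loops joined parts of the gene itself.

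Loops of a single list at NFATC2 lay on both sides of the upstream start. A loop of the other list with both anchors within 2 bins existed for 4 of the 12 that were WT-only and for 5 of the 13 that were STAG2-KD-only. On the upstream side of the upstream start, 7 loops were WT-only, all between 385 kb (chr20:50560001-50565000) and 570 kb (chr20:50745001-50750000), and the farthest 3 ended inside ZFP64. From that start on the same side, 3 loops were STAG2-KD-only, at 25 kb (chr20:50200001-50205000), at 70 kb inside ATP9A (chr20:50245001-50250000) and at 520 kb inside ZFP64 (chr20:50695001-50700000), the last 1 bin away from a WT-only partner. The anchors at 25 kb and 70 kb were in no WT loop and in 8 and 14 STAG2-KD loops, though 5 and 1 WT loops ended within 2 bins of them. The 70 kb and 520 kb loops were picked out after their values were seen. On the downstream side the 5 WT-only loops spanned 130 kb to 535 kb, and the 4 STAG2-KD-only loops of that start spanned 80 kb, 120 kb, 135 kb and 525 kb. Those of 120 kb, 135 kb and 525 kb ended 1 or 2 bins from a WT-only partner. The 80 kb loop and the WT-only loops of 205 kb and 220 kb had no loop of the other list within 2 bins.

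A further anchor at chr20:49650001-49655000, with KCNG1 as the nearest protein-coding gene, was in 12 STAG2-KD loops and no WT loop, with 1 WT loop within 2 bins. It was reached in STAG2-KD from both NFATC2 start bins, over 525 kb and 365 kb. The other 5 STAG2-KD-only loops of the internal start bin spanned 25 kb to 185 kb, with 3 of the partners inside the gene. Loops also joined the NFATC2 partners to one another, 10 in WT among 20 partner bins and 32 in STAG2-KD among 16. For SNAI2 there were 11 such loops in WT among 16 partner bins and 2 in STAG2-KD among 8. ZEB2 had 8 among 9 and 4 among 7, and PRRX1 had 11 among 8 and 10 among 7. NFATC2 had more loops among fewer partners in STAG2-KD, while SNAI2 had fewer loops among fewer partners.

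ZEB1, SOX9, TCF4 and NR2F1 had no loop at any of their 30 start bins. ZEB1 is the zinc finger relative of ZEB2 (chr10:31607424-31818742), SOX9 an HMG-box factor of neural crest and cartilage (chr17:70117161-70122557), TCF4 an E-protein partner of TWIST factors (chr18:52889416-53332018) and NR2F1 an orphan nuclear receptor (chr5:92918928-92930317). The anchor nearest to a ZEB1 start was 220 kb away in WT and at 285 kb in STAG2-KD. For SOX9 it was 95 kb and 145 kb, and for NR2F1 275 kb and 280 kb. For TCF4 the nearest anchor was 1920 kb away in WT, at FECH, and 345 kb in STAG2-KD, at RAB27B. A missing loop could not be told apart from one below the caller's limit. The enzyme MboI cuts at GATC, which occurred 4 to 17 times in these start bins and 7 to 20 times in the looped start bins. Over all anchors of either list the 5th percentile was 8, the median 14 and the 95th percentile 21. An unlooped start bin of ZEB2, a gene with loops, also held 4. The lowest value among the start bins of these 4 genes was that of the SOX9 bin and of 1 of the 22 TCF4 bins, and its part in the result was not tested.

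The surroundings of the genes were counted within 1 Mb of a start, leaving out loops at the gene's own starts. ZEB2 had 50 such loops in WT and 23 in STAG2-KD, SNAI2 had 21 and 3, and SOX9 had 45 and 29. NFATC2 had the opposite order, with 55 and 89. SNAI1 had 84 in each list, PRRX1 43 and 39, ZEB1 23 and 21, and TWIST1 9 and 7. NR2F1 with 4 in each list and TCF4 with 0 and 2 had the fewest. Including the gene's own loops, 7 of the 10 genes had at least 40 loops in the window, summed over both lists. SNAI2, with 37 and 11, was the 1 of these 7 with at least 2 times as many in WT. Over all genes with at least 40 loops this was so for 1.39%. ZEB2, with 59 and 30, stood just below that ratio. The SNAI2 call depended on its own loops, since without them SNAI2, at 21 and 3, fell short of the limit of 40. Without its own loops ZEB2, at 50 and 23, had at least 2 times as many in WT. None of the 7 had at least 2 times as many in STAG2-KD, against 0.680% of all such genes, and neighboring genes share loops in this count.

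**Figure D4:**
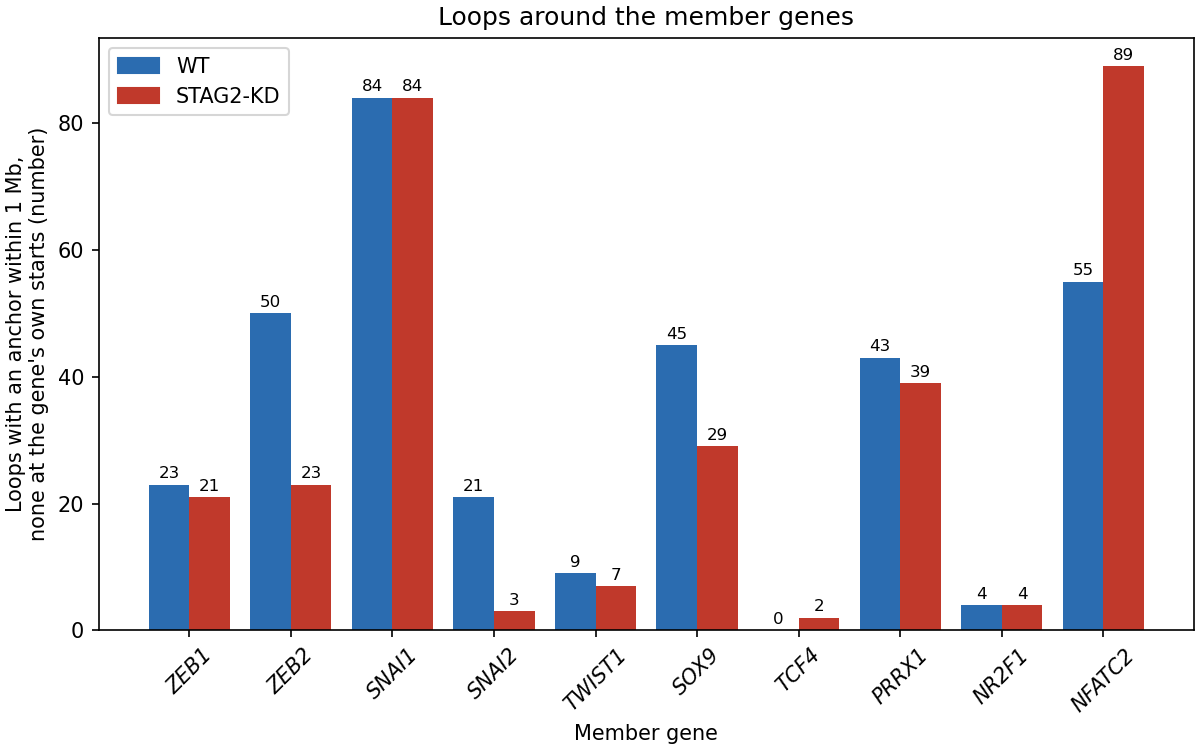
Bars give the number of loops with an anchor within 1 Mb of each gene and none at the gene's own starts (vertical axis), in WT and STAG2-KD. ZEB2 had 50 and 23, SNAI2 21 and 3, and NFATC2 55 and 89.

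Other genes of the same pathways were counted from lists that were fixed with earlier results of these data known. Of 18 further EMT transcription factors and their partners, 6 had a WT loop (39.1% over all genes) and 6 had a STAG2-KD loop (36.8% over all genes). No loop in either list was found for 10 of the 18, and for 10660 of all 19222 genes. Of the 8 with loops, 3 were higher in STAG2-KD (34.4% over all genes with loops) and 5 were higher in WT (43.5%). TCF12, an E-protein, had 12 loops in WT and 9 in STAG2-KD. ID1 and ID2, which bind and block E-proteins, had 4 and 6 and then 4 and 2. The median of this list was 0 loops in both lists, as it was over all genes.

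Of 15 epithelial and mesenchymal effector genes, 10 had a WT loop (39.1% over all genes) and 9 had a STAG2-KD loop (36.8%), and 7 of the 10 with loops were higher in STAG2-KD (34.4% over all genes with loops) while 1 was higher in WT (43.5%). Their median was 1 loop in WT and 2 in STAG2-KD. CD44, a hyaluronan receptor, had 20 and 21 loops, THBS1, which encodes thrombospondin 1, had 7 and 12, and TNC, which encodes the matrix protein tenascin C, had 3 and 8. Neither E-cadherin (CDH1) nor N-cadherin (CDH2) had a loop.

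The melanoma origin of the M14 line was set beside 8 melanocyte lineage genes. A loop was found at 7 of them in WT (39.1% over all genes) and at 6 in STAG2-KD (36.8%), with medians of 4.5 and 4. Of the 7 with loops, 2 were higher in STAG2-KD (34.4% over all genes with loops) and 4 were higher in WT (43.5%). TYR, which encodes tyrosinase, had none. TFAP2A had 8 loops in WT and 7 in STAG2-KD, PAX3 5 and 7, and PMEL 7 and 4. MITF, the master regulator of the lineage, had 7 and 2. CDH1, CDH2, TYR and MITF were named after their counts were seen. A loop list holds no expression level, so these are counts of loops at starts only.

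**Figure D5:**
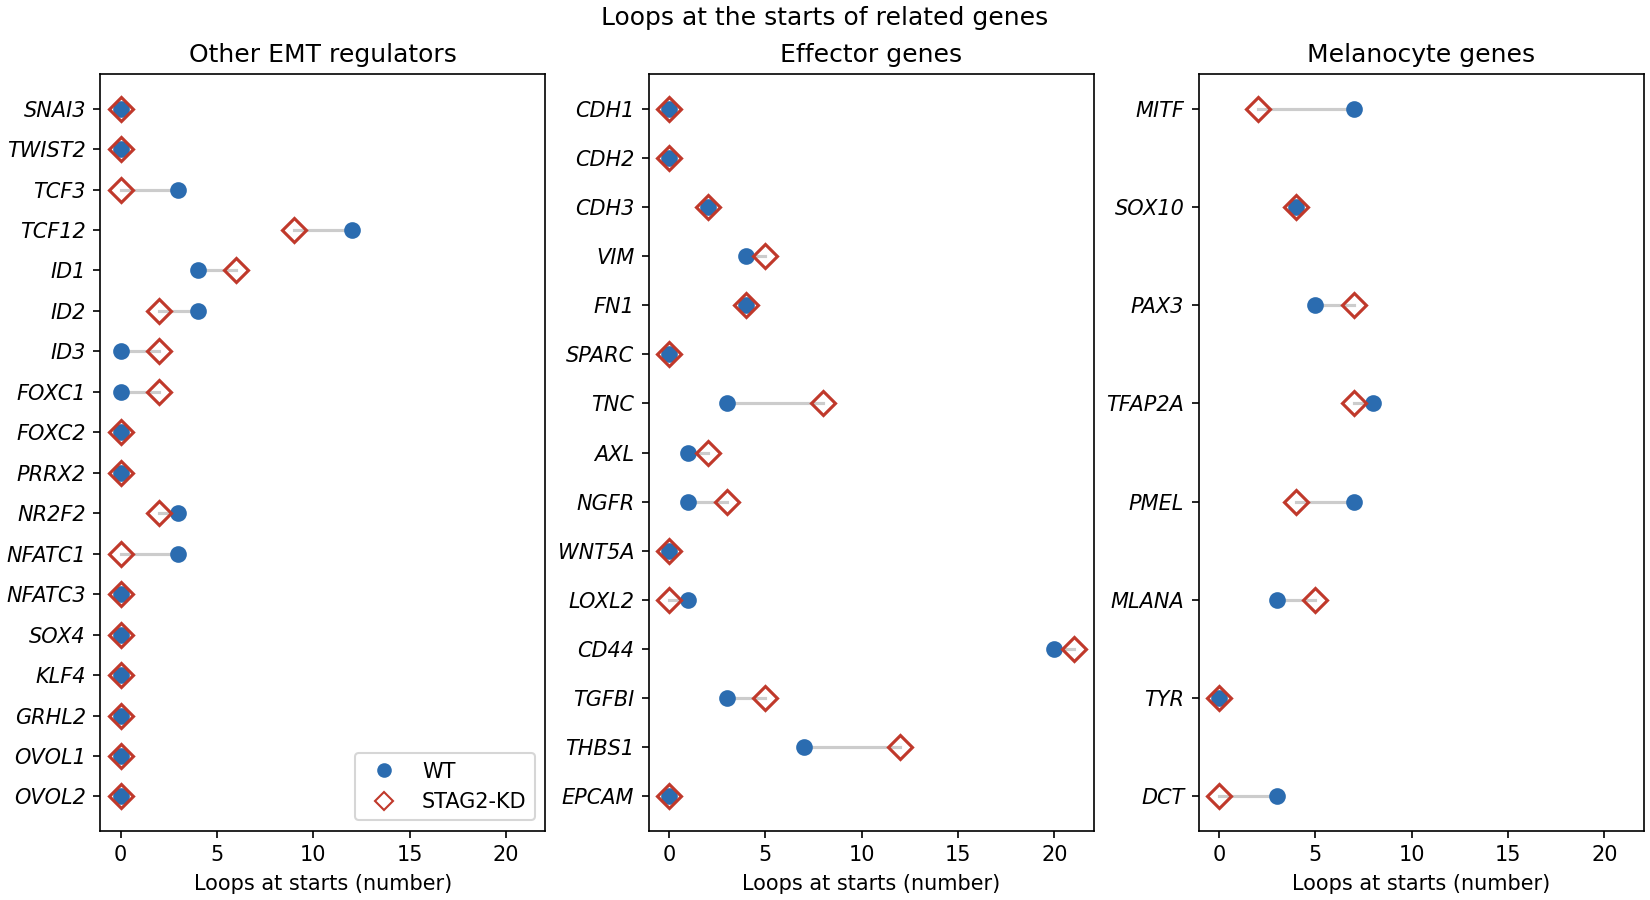
Number of loops at the starts of each gene (horizontal axis) in WT (filled circles) and STAG2-KD (open diamonds), joined by a line, for further EMT regulators, effector genes and melanocyte lineage genes. CD44 had the most (20 and 21), TNC (3 and 8) and THBS1 (7 and 12) were higher in STAG2-KD, and MITF (7 and 2) was higher in WT.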

How the data were processed

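H3K27ac HiChIP of M14 cells was analysed from 1 deposited loop list per group, each filed under replicate 1, and the group came from the sample titles. Per the study's methods, the authors digested chromatin with MboI, aligned reads to hg19 with HiC-Pro, called peaks with hichip-peaks and loops with FitHiChIP. For their differential analysis they removed self-ligated loops, loops above a false discovery rate and loops supported in a single replicate. Whether these limits shaped the deposited lists, whether replicates were merged, and tool versions are not given in the sources used here. The lists deposited by the authors hold positions (chromosome, left anchor start, right anchor end) and no count or score.

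Positions were counted from 1, anchors were 5 kb and distance ran between anchor midpoints. Transcript starts were read from the GRCh37 lift of GENCODE release 44, and sequences from the GRCh37 genome. One promoter sequence is not reported here. Gene counts covered autosomes. Python 3.11.15, numpy 2.4.6, scipy 1.17.1 and matplotlib 3.10.9 were used. The counting functions were tested on simulated data, and 6 of 6 planted values were recovered.

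The genes, gene lists and limits were chosen with earlier results of these data known. All 10 genes were named, with every shared loop, the nearest and farthest loop of a single list, every loop of genes with at most 6, and up to 3 genes per further list. Alternatives were tolerances of 1 and 2 bins, other sets of transcripts, starts within 5 kb, a limit of 1 Mb, the earlier 50% of lines and leaving out each gene in turn.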

Additional observations from a re-analysis of the deposited data

How the results depend on the processing

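Of 241 values recomputed under the alternatives, 224 stayed within 1.5 times the count or within the interval given, and 17 did not, 7 of 141 over all genes and 10 of 100 for single genes. Some of the 224 could not move. ZEB1, SOX9, TCF4 and NR2F1 had no loop, so leaving out any of them changed no value over all genes. Their counts of 0 also had to stay 0 wherever an alternative only removed starts or loops. With anchors allowed to lie within 2 bins, the shared part rose to 57.1% of WT and 68.9% of STAG2-KD loops. The shares over the whole lists were not computed at this tolerance. The values of 38.0% and 40.5% given above for the whole lists hold for identical bins and cannot be set beside these. With the canonical transcript alone, 26 WT and 16 STAG2-KD loops were left, with ZEB2 at 0 and 1 and NFATC2 at 0 in each list, since their loops came from other starts. The earlier 50% of the lines held 35 WT loops. Leaving out NFATC2 left 35 WT and 23 STAG2-KD loops. The SNAI2 order, 16 and 8, was 9 and 3 in the earlier lines. What the order of the lines means is not given, so this subset of the same lists was not a separate check. No paired analysis was possible because WT and STAG2-KD had 1 list each, and for the same reason no replicate could be left out. A stricter score limit could not be applied to positions alone. Depth was unknown, so loops near the caller's limit could not be told from absent ones.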
